A study of Mus musculus with 2 samples.

Results

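Unannotated transcription was examined at 2348 autosomal entries of the transcript table, out of 29126 entries in all. An entry was taken when it carried no gene symbol, had the status OK, lay on chromosomes 1 to 19 and had a locus of 1000 bp or more. The limit acts on the locus, which is the shared interval that the assembly gives to all overlapping transcripts, and not on the length of the transcript itself, which the table does not give. The 2348 entries occupied 1524 distinct loci. Of these loci, 1127 held 1 such entry, and the most crowded held 20. A further 6 unannotated entries of this size had another status and were not used.

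The RNA came from mouse embryonic fibroblasts (MEFs), the connective-tissue cells that grow out of dissociated embryos. One library was made from Dnmt1+/+ MEFs and 1 library from Dnmt1-/- MEFs, both homozygous null for trp53, so the loss of p53 is shared by the control. The Dnmt1-/- cells are homozygous for a hypomorphic allele written Dnmt1 n/n, which lowers the activity of the gene without deleting all of it. The strain is labelled unknown. Strand-specific mRNA libraries were sequenced as 50 bp single-end reads, and the values are RPKM, read counts scaled to the length of the transcript and the size of the library. Each genotype is a single library, so the differences lack a replicate check and every comparison describes these 2 libraries.

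Dnmt1 is the maintenance methyltransferase that copies the methylation of CpG sites onto newly replicated DNA. Most of the mammalian genome outside CpG islands is methylated, intergenic sequence included, and methylation is one of the layers that keeps cryptic promoters and transposable elements silent. Transcripts without a gene symbol can be independent non-coding RNAs, antisense RNAs, segments of genes that the annotation had not yet joined, or fragments of introns and untranslated regions of known genes.

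Dnmt1 itself was at 65.2 RPKM in the Dnmt1+/+ library and 14.5 in the Dnmt1-/- library. All 8 fibroblast markers examined reached 1 RPKM in Dnmt1+/+ MEFs and 7 did so in Dnmt1-/- MEFs, with summed levels of 6282 and 4957 RPKM. Members went in both directions: S100a4 rose from 289.6 to 1262 RPKM, Fn1 fell from 663.7 to 235.5, Col1a2 fell from 1241 to 475.9, and Thy1 fell from 4.84 to 0.129. None of the 4 epithelial, 3 endothelial or 2 pluripotency markers found reached 1 RPKM in either library. Of 3 haematopoietic markers, Cd68 was at 0.596 and 3.63 RPKM and Ptprc and Emr1 were listed at 0 in both. The part of these differences in the results below was not tested. Named autosomal entries had a median log2 change of -0.13, Dnmt1-/- over Dnmt1+/+, and the changes of the unannotated entries are read beside that value.

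Entries fell into classes by position and by strand. A total of 1738 entries (74.0%) shared the locus of a named entry, 286 (12.2%) lay within 10 kb of a named locus, and 324 (13.8%) lay farther away. The identifiers climb along each chromosome in 3 passes. In the first pass 99.0% of named entries with an annotated strand were on the plus strand, in the second 99.2% were on the minus strand, and the third held no named entry at all. The third pass held 88.0% of the unannotated entries examined, and these are called unstranded here. Entries of the first and second pass are called stranded, with the strand inferred from the pass. Outside named loci 257 entries were stranded and 353 were unstranded. Within named loci 1714 were unstranded and only 24 were stranded. As a check of the inferred strand, 170 stranded entries outside named loci overlapped a gene of the GENCODE annotation, and 156 of these (91.8%) had a GENCODE gene on the inferred strand.

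The first bases of 7 loci are shown as examples of the sequence at which stranded entries begin. A locus edge is the edge of the assembled interval and not a mapped transcript start. The first 300 bases of the locus on the inferred strand are given in NCBI37 (mm9), with every CpG in capitals, for the 5 largest rises and the 2 largest falls of stranded entries outside named loci whose first 300 bases were at least 95% single-copy in the genome. This choice was made after the values were seen, and 1 entry was taken from each neighbourhood. The single-copy limit leaves out larger rises such as XLOC_026575 and XLOC_007769, and the larger fall XLOC_021370. The first 5 lines are rises and the last 2 are falls.

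XLOC_008607, chr15:91029869-91030168, plus strand: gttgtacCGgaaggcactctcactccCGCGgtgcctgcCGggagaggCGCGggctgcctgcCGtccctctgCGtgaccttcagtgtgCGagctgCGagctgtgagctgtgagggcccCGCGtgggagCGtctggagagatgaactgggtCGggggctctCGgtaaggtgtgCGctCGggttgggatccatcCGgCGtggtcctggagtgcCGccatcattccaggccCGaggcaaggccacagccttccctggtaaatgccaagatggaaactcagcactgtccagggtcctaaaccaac
XLOC_009770, chr16:50526340-50526639, plus strand: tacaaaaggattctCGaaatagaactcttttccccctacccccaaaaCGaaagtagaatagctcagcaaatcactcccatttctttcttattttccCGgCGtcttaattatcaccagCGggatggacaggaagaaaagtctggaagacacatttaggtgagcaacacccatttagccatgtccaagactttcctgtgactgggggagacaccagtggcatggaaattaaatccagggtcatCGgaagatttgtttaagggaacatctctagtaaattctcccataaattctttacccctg
XLOC_010474, chr17:5799591-5799890, plus strand: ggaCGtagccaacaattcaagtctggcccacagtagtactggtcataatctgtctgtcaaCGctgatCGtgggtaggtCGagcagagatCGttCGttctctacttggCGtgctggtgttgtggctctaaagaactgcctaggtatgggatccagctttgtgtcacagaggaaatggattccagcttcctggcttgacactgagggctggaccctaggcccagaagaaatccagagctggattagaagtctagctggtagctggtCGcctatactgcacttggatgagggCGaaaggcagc
XLOC_013850, chr2:50733788-50734087, plus strand: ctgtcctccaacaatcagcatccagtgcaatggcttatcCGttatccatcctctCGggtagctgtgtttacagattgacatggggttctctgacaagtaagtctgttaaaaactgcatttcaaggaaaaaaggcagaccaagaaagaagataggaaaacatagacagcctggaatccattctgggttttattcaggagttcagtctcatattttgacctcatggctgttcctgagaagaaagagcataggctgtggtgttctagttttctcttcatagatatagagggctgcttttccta
XLOC_017540, chr4:94813797-94814096, plus strand: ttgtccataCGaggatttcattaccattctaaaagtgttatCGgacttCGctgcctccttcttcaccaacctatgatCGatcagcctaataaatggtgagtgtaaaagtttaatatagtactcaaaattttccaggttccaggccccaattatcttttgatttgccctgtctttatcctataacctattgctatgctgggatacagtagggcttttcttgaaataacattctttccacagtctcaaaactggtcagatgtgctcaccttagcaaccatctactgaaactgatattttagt
XLOC_001022, chr1:157089159-157089458, minus strand: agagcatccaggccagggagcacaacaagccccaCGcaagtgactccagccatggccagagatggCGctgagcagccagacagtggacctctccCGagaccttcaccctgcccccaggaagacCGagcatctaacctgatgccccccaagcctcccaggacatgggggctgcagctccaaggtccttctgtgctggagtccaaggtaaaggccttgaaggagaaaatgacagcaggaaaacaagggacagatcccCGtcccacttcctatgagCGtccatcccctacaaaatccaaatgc
XLOC_020943, chr6:52115874-52116173, plus strand: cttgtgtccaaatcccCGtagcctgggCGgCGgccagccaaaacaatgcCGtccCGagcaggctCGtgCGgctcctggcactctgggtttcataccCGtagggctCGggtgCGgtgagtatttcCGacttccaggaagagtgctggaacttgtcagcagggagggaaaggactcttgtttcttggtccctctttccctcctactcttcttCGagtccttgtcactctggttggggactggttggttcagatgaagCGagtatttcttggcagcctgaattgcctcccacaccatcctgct

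XLOC_008607 began in 300 bases with 21 CpG sites, the density of a CpG island, and rose from a listed 0 to 21.7 RPKM. XLOC_009770 had 6 CpG sites there and rose from a listed 0 to 10.9 RPKM. XLOC_010474 had 9 and went from 0.158 to 20.7 RPKM. XLOC_013850 and XLOC_017540 had 2 and 4, and rose from a listed 0 to 5.42 and 4.48 RPKM. Of the falls, XLOC_001022 had 6 CpG sites and went from 3.83 to 0.0169 RPKM, and XLOC_020943, inside the HoxA cluster, had 13 and went from 2.35 RPKM to a listed 0. The rises thus spanned locus edges with few and with many CpG sites. For scale, the median of all autosomal 300-base windows was 2 CpG sites.

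With all classes pooled, more entries fell than rose in Dnmt1-/- MEFs. An RPKM of at least 1 in either library was reached by 2232 of the 2348 entries, and the other 116 were left out of the counts of change. Changes were taken between log2 values of RPKM plus 0.1, which makes the change of a low entry look smaller than it is. In Dnmt1-/- MEFs 301 entries (13.5%) were higher and 705 (31.6%) lower by more than 2-fold, the limit behind every count of higher and lower entries given here. Over all 19258 entries of the table with status OK and at least 1 RPKM in either library the shares were 13% higher and 17.5% lower. The share higher was thus near the background and the share lower was above it. The median RPKM of the 2232 entries was 3.45 in the Dnmt1+/+ library and 2.56 in the Dnmt1-/- library, and their median log2 change was -0.45, with quartiles of -1.27 and 0.29.

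Entries silent in one library were found in both directions. A total of 102 entries (4.34%) were listed at 0 in Dnmt1+/+ MEFs and reached 1 RPKM in Dnmt1-/- MEFs, against 3.02% of all entries with status OK. In the other direction 116 entries (4.94%) were listed at 0 in Dnmt1-/- MEFs and reached 1 RPKM in Dnmt1+/+ MEFs, against 1.66%. Only 3 entries were listed at 0 in both. The table gives no read counts, so no detection limit can be put on a listed 0.

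**Figure D1:**
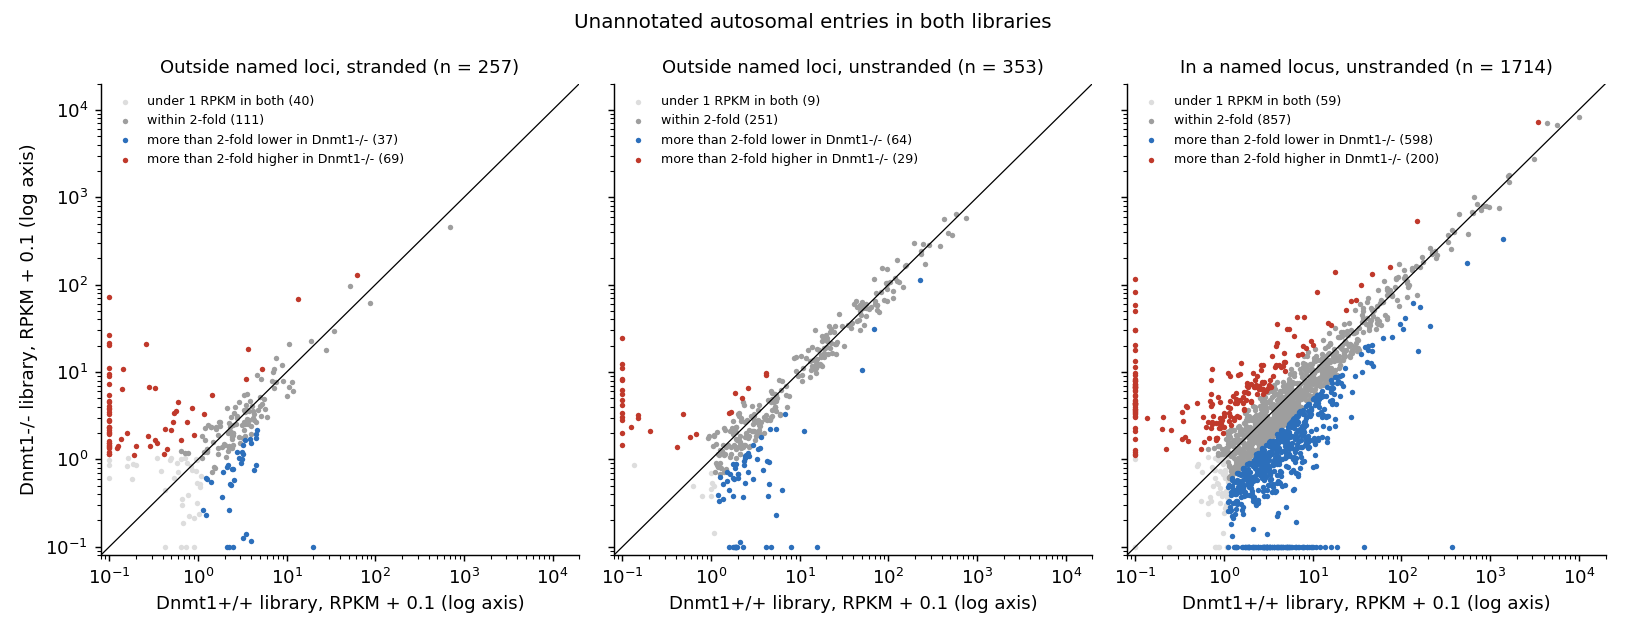
RPKM plus 0.1 in the Dnmt1+/+ library (horizontal) against the Dnmt1-/- library (vertical), both on log axes, 1 point per unannotated autosomal entry: 257 stranded and 353 unstranded outside named loci and 1714 unstranded in named loci, with the 24 stranded in named loci not drawn. The points on the left edge are listed at 0 in Dnmt1+/+ MEFs and stand out in the stranded panel, where 69 entries were higher and 37 lower, while the third panel has 200 higher and 598 lower.

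The classes differed in direction. Stranded entries outside named loci were the class with more rises than falls. Of its 217 entries with at least 1 RPKM, 69 (31.8%) were higher in Dnmt1-/- MEFs and 37 (17.1%) were lower, with a median log2 change of 0.06 and an upper quartile of 2.34. Both strands gave this picture, with 37 higher and 20 lower of 120 on the plus strand and 32 higher and 17 lower of 97 on the minus strand. Grouped by the RPKM of the higher library, rises did not outnumber falls in every band. There were 27 higher and 7 lower of 56 at 1 to 2 RPKM, and 22 higher and 29 lower of 111 at 2 to 5. At 5 to 20 the counts were 13 and 1 of 36, and at 20 or more 7 and 0 of 14. In this class 35 of 257 entries (13.6%) were listed at 0 in Dnmt1+/+ and reached 1 RPKM in Dnmt1-/- MEFs, and 4 (1.56%) did the reverse. Unstranded entries outside named loci moved less, with 29 of 344 (8.43%) higher, 64 (18.6%) lower and a median of -0.23. Zeros were balanced there, with 14 in each direction. Unstranded entries within named loci had 200 of 1655 (12.1%) higher and 598 (36.1%) lower, and a median of -0.58. They were listed at 0 in Dnmt1+/+ only in 53 cases and in Dnmt1-/- only in 96.

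**Figure D2:**
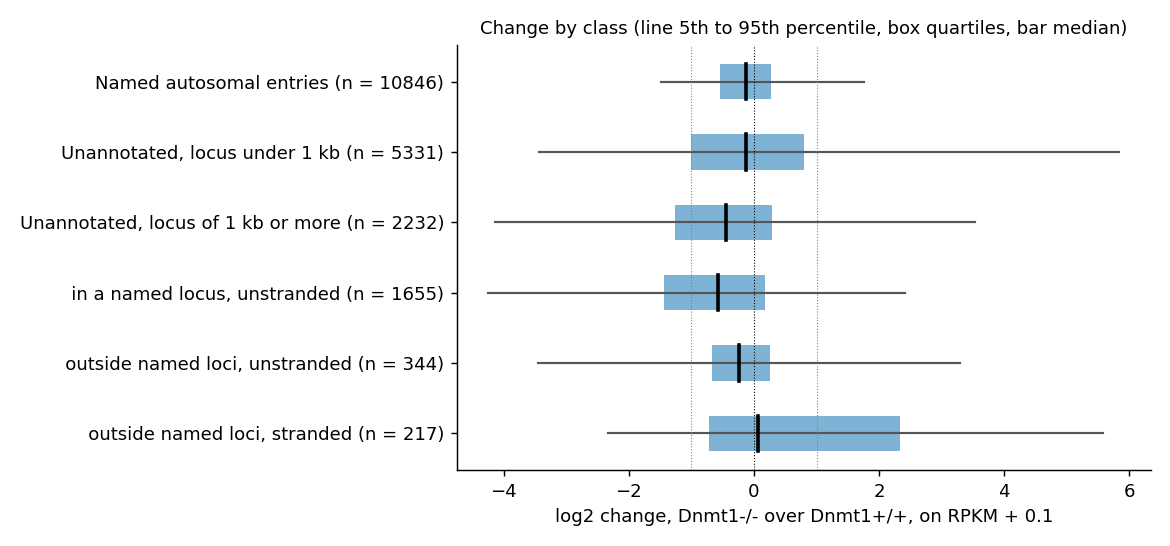
Log2 change of RPKM plus 0.1, Dnmt1-/- over Dnmt1+/+ library, for entries with at least 1 RPKM in either library, where the line spans the 5th to 95th percentile over entries, the box the quartiles and the bar the median. Named entries had a median of -0.13, unstranded entries in named loci -0.58, and stranded entries outside named loci 0.06 with a box that reaches 2.34.

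For comparison, named autosomal entries were higher in 8.41% and lower in 10.4% of 10846, and listed at 0 in Dnmt1+/+ only in 0.433%. Unannotated autosomal entries with a locus under 1000 bp were higher in 22.5% and lower in 25.2% of 5331. Of all 5405 such short entries, 9.08% were listed at 0 in Dnmt1+/+ and reached 1 RPKM in Dnmt1-/- MEFs, and 3.68% did the reverse. A listed 0 in Dnmt1+/+ only was thus more frequent among the short entries than among the longer ones. Just inside the 1000 bp limit, XLOC_015702 (1004 bp) was at 3.25 and 1.22 RPKM in Dnmt1+/+ and Dnmt1-/- MEFs, XLOC_001360 (1006 bp) at 1.18 and 0.525, and XLOC_010252 (1008 bp) at 18.8 and 14.6. Just outside it, XLOC_001650 (996 bp) was at 2.94 and 0.798 RPKM, XLOC_015648 (995 bp) at 0.715 and 0.533, and XLOC_027475 (995 bp) at 0.609 and 0.412.

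Distance from named loci separated the stranded entries further. A far entry can still lie over a GENCODE gene, as XLOC_000866 does over Col6a3, 70.9 kb from the nearest named entry. Beyond 10 kb from any named locus, 51 of 123 stranded entries (41.5%) were higher and 19 (15.4%) were lower, with 29 listed at 0 in Dnmt1+/+ only. Within 10 kb the counts were equal, 18 higher and 18 lower of 94. Among unstranded entries outside named loci, 7 of 165 within 10 kb were higher and 41 lower, whereas beyond 10 kb 22 of 179 were higher and 23 lower. The stranded entry farthest from a named locus, XLOC_014891 on chromosome 2, was listed at 0 in Dnmt1+/+ MEFs and at 3.40 RPKM in Dnmt1-/- MEFs.

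Stranded entries that no GENCODE gene covered had a larger share of rises than those over protein-coding or long non-coding genes. Of 87 such entries, 69 reached 1 RPKM, and 36 of them (52.2%) were higher and 9 lower, with a median log2 change of 1.47. Entries over a protein-coding GENCODE gene had 21 higher and 22 lower of 108, and a median of -0.31. Entries over a long non-coding gene had 8 higher and 5 lower of 32. Only 6 entries lay over pseudogenes and 3 over small RNA genes. The unstranded entries did not follow the same order, with 15 higher and 18 lower of 128 where no GENCODE gene was present. A group of 69 unstranded entries over pseudogenes moved little, with 1 higher, 5 lower and a median of -0.17. Several of these held mostly sequence that recurs elsewhere in the genome. The part of reads from other copies in their values was not tested.

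The largest rises outside any gene were intergenic transcripts that were listed at 0 in Dnmt1+/+ MEFs. The highest was XLOC_026575 on the plus strand at chr9:98671950-98676073, 66.9 kb from Prr23a, which rose from a listed 0 to 72.1 RPKM. An unstranded entry of the same locus, XLOC_027572, went from a listed 0 to 24.3 RPKM, and Prr23a was listed at 0 in both libraries. XLOC_007769, on the minus strand at chr14:44804654-44808686, rose from a listed 0 to 26.6 RPKM, while the nearest named entry, 4930503E14Rik at 55.6 kb, was at 0.0550 and 0.141. Neither locus overlapped a GENCODE gene. Much of the sequence of XLOC_007769, and of XLOC_001755 named next, was repeated in the genome, with values given below.

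Further stranded rises were named from the largest changes of the class, after their values were seen. XLOC_001755 on the plus strand at chr10:7133519-7145055 rose from 0.0429 to 10.7 RPKM, about 250-fold (249.9), and H60c, 44.9 kb away, was listed at 0 in both libraries. XLOC_010474 at chr17:5799591-5803245 rose from 0.158 to 20.7 RPKM, 131-fold, and Snx9, a membrane-trafficking gene 38.0 kb away, went from 44.3 to 89.2. XLOC_023208 at chr7:144838491-144876062 rose from 0.0391 to 6.25 RPKM, and Glrx3, 178 kb away, went from 33.2 to 23.97. XLOC_013850 at chr2:50733788-50738850, 26.3 kb from Gm13498, had no GENCODE gene either. These neighbours did not share the size of the change.

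Several stranded rises matched non-coding genes that GENCODE names and the table does not. XLOC_009770 covered the lincRNA gene G730013B05Rik at chr16:50526340-50538434, and an unstranded entry in the same gene, XLOC_010388, went from a listed 0 to 8.17 RPKM. XLOC_017540 covered BC042782 on chromosome 4. XLOC_022861 covered Gm2115 on chromosome 7 and rose from 3.54 to 18.4 RPKM. XLOC_010094 covered Gm9581 on chromosome 16 and rose from 0.748 to 3.82 RPKM. Other non-coding genes kept their level: XLOC_027113 covered Snhg5, a host gene of small nucleolar RNAs, and was at 33.9 RPKM in Dnmt1+/+ and 29.2 in Dnmt1-/- MEFs. Falls in this group included XLOC_016511 over Gm6634 on chromosome 3, from 1.75 to 0.267 RPKM, and XLOC_006537 over A830082K12Rik on chromosome 13, from 2.97 to 0.801.

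Some groups of neighbouring entries changed in the same direction throughout, and those described first were chosen for this after their values were seen. The CN725425 gene of GENCODE on chromosome 15 was covered by 5 entries between chr15:91029869 and 91092008, all listed at 0 in Dnmt1+/+ MEFs and at 3.22 to 21.7 RPKM in Dnmt1-/- MEFs. Its flanking named genes stayed low, with Abcd2, a peroxisomal fatty-acid transporter, at 0.882 and 0.291 and Slc2a13, a myo-inositol transporter, at 0.0374 and 0.0122. The Gm11751 gene on chromosome 4 was covered by 6 entries at chr4:67781575-67798238, again all listed at 0 in Dnmt1+/+ MEFs, with 2.18 to 7.94 RPKM in Dnmt1-/- MEFs. The nearest named entry, Dbc1, was 624 kb away. At chr3:107615965-107632309, where GENCODE has no gene, 5 of 6 entries were higher, with 0 to 1.75 RPKM in Dnmt1+/+ and 1.39 to 5.71 in Dnmt1-/- MEFs.

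Other groups of this kind were lower throughout. At chr1:157059692-157089458, 7 entries were all lower, from 3.13 to 15.8 RPKM in Dnmt1+/+ MEFs to at most 0.343 in Dnmt1-/- MEFs, and 6 of the 7 lay in the protein-coding gene BC034090, which the table does not name. The flanking gene Stx6, a SNARE protein of the Golgi, was at 23.4 and 16.4 RPKM, a log2 change of -0.51. In Slc1a3, the glial glutamate transporter GLAST, 8 unstranded entries of 1 locus on chromosome 15 were at 1.76 to 7.90 RPKM in Dnmt1+/+ MEFs and all listed at 0 in Dnmt1-/- MEFs. The named Slc1a3 entry, 11.6 kb away, went from 16.9 to 0.162 RPKM. The largest group lay in the locus of Pcdh9, a protocadherin, on chromosome 14, where all 20 entries were lower, at 1.22 to 10.04 RPKM in Dnmt1+/+ and 0 to 0.613 in Dnmt1-/- MEFs. Pcdh9 went from 3.74 to 0.193 RPKM. Entries of 1 locus share a neighbourhood and perhaps a transcript, so they are not independent observations.

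**Figure D3:**
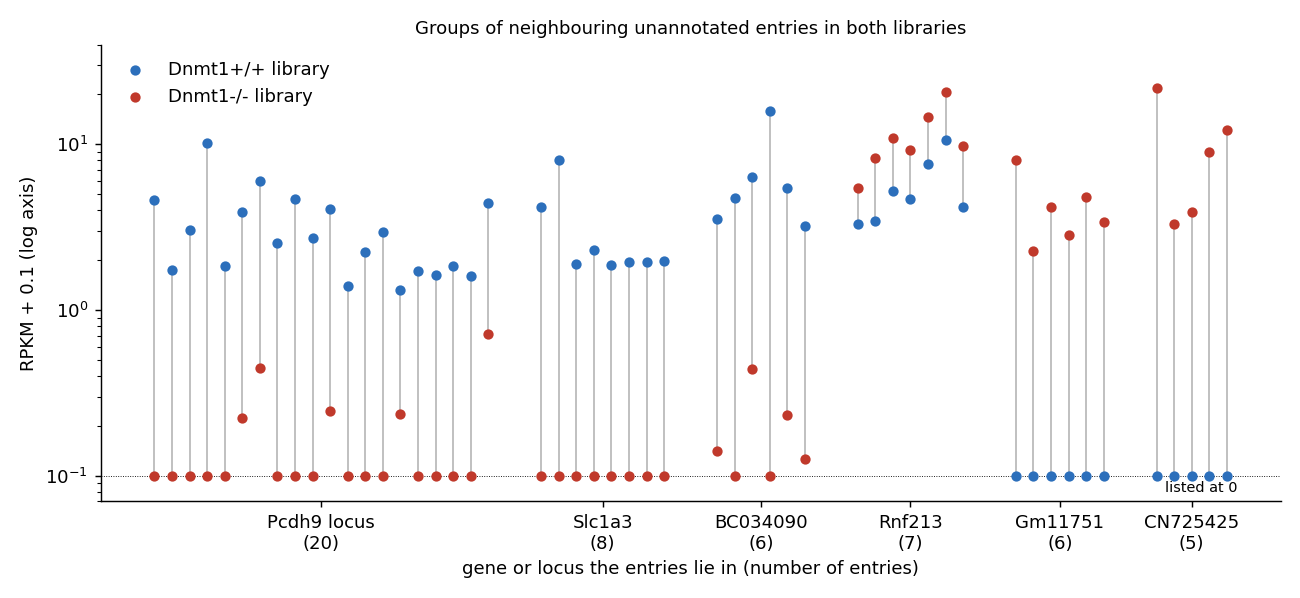
RPKM plus 0.1 (log axis) of each unannotated entry in 6 genes or loci, with the Dnmt1+/+ library in blue, the Dnmt1-/- library in red and a grey line joining them. All entries of Pcdh9 (20), Slc1a3 (8) and BC034090 (6) are lower in Dnmt1-/- MEFs, all of Gm11751 (6) and CN725425 (5) start from a listed 0, and the 7 entries of Rnf213 shift upward together by a smaller step.

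Other groups lay over long protein-coding genes and changed to different degrees. Rnf213, a large E3 ubiquitin ligase, was covered by 7 entries at chr11:119254395-119348733 whose log2 changes lay between 0.72 and 1.26, with 3 past 2-fold. Col6a3, a collagen VI chain, was covered by XLOC_000866, which went from 62.6 to 130 RPKM, and XLOC_000865, which went from 51.9 to 97.1. Stard9, a mitotic kinesin, was covered by 7 entries with log2 changes between -3.11 and -0.32, of which 4 were past 2-fold. The 4 entries over Ank2, an ankyrin of the membrane skeleton, ranged from -2.38 to -0.99, and the named Ank2 entry went from 8.40 to 2.20 RPKM. Syne1, a nuclear envelope protein, had 8 entries between -1.15 and 0.11. Gm15800 was covered by 14 entries on its own strand, of which 1 was lower and none higher. On the opposite strand of the same gene, XLOC_020087 went from 0.436 to 3.33 RPKM while XLOC_019465, at the same locus on the strand of the gene, was at 1.88 and 1.40. In all, 64 of the 117 stranded entries over a protein-coding GENCODE gene lay over genes whose symbol is nowhere in the table.

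Groups of neighbouring entries were defined by gaps under 50 kb. Counting entries with at least 1 RPKM, 209 groups held 3 or more, of which 8 were higher throughout and 17 lower throughout, so most groups were mixed or within 2-fold. Outside named loci this held for 2 and 3 of 25 groups. Besides Pcdh9 and Gm15800, the most crowded were 14 entries in the locus of Masp1, a protease of the complement lectin pathway, with 2 higher and 9 lower at log2 changes from -3.71 to 1.28, 12 near Pisd-ps2 and Scaf8 with 0 higher and 6 lower, and 12 near Klhl26 with 1 higher and 2 lower. The 9 entries over Katnal1 ranged from -2.31 to 0.41, with 3 lower.

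Among unstranded entries within named loci several extremes lay in loci whose most expressed named entry did not change past 2-fold. XLOC_006123, in the locus of Erh on chromosome 12, rose from a listed 0 to 117 RPKM, while Erh was at 61.3 and 68.2. XLOC_024450, in the locus of Rab6, went from a listed 0 to 81.7 RPKM with Rab6 at 17.3 and 13.5. XLOC_004741 was in the Pisd-ps1 locus, whose named entry fell from 25.9 to 9.77, and went from a listed 0 to 58.1 RPKM. XLOC_024260 in the Gsk3a locus and XLOC_010333 in the Fbxo45 locus went from a listed 0 to 49.9 and 30.4 RPKM. The largest fall was XLOC_009349 in the locus of Cdc42ep1, from 372 RPKM to a listed 0, with Cdc42ep1 at 40.6 and 48.5. XLOC_013407 and XLOC_013404, both in the Dagla locus, went from 37.4 and 13.8 RPKM to a listed 0, and Dagla from 3.52 to 1.71.

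The remaining large falls were of mixed kinds. XLOC_006134 lay in the locus of Pgf, placental growth factor, and went from 16.1 RPKM to a listed 0 with Pgf falling from 9.59 to 0.695. XLOC_022293 went from 18.8 RPKM to a listed 0 in the locus of Rps4y2, a ribosomal protein gene that went the other way, from 0.0190 to 177. XLOC_027470 in the Nptn locus and XLOC_003068 in the Msrb3 locus went from 11.9 and 10.8 RPKM to a listed 0, and XLOC_008268 was the largest fall of the Pcdh9 group, from 10.04 RPKM to a listed 0. XLOC_001637 was that of the BC034090 group, from 15.8. XLOC_021370, a stranded entry at chr6:10120250-10121703 without a GENCODE gene and 800 kb (799.8) from the nearest named entry, went from 19.6 RPKM to a listed 0.

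Of the 5 entries with the highest mean values, 4 were within 2-fold. XLOC_025969, in the locus of Itfg1 and Phkb, was at 10179 RPKM in Dnmt1+/+ and 8390 in Dnmt1-/- MEFs. XLOC_005979 and XLOC_005981, in the Adcy3 locus, were at 5736 and 6697 and at 3139 and 2711 RPKM. XLOC_011832 and XLOC_011833 lay in the locus of Alk, a receptor tyrosine kinase listed at 0 in both libraries, and went from 3443 to 7239 and from 4388 to 7115 RPKM, the first of these past 2-fold. These 3 loci spanned more than 100 kb each, so the length over which these reads were counted cannot be read from the locus. Among unstranded entries in named loci the share lower was smaller in the highest band of level. Grouped by the RPKM of the higher library, the share lower was 37.7% of 300 entries at 1 to 2, 42.2% of 576 at 2 to 5, 37.0% of 567 at 5 to 20 and 15.1% of 212 at 20 or more.

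Unannotated entries tended to move with the nearest named gene. A named neighbour with at least 1 RPKM lay within 50 kb of 2013 entries. Where several named entries were equally near, as in a shared locus, the one with the highest summed RPKM was taken. Beside 121 entries the neighbour had risen past 2-fold in Dnmt1-/- MEFs, and the median log2 change of these entries was 0.75. Beside 216 the neighbour had fallen past 2-fold, and the median was -1.72, with 69.0% lower. Beside the other 1676 it was -0.48. The correlation of the log2 changes across these 2013 pairs was 0.376 (Pearson), a description over entries that share libraries and often loci. Outside named loci it was 0.534 over 380 pairs, and there 0 of 52 entries beside a lower neighbour were higher and 0 of 22 beside a higher neighbour were lower.

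Within named loci the entries lay below the paired named entry, which need not be the gene they lie in, more often than above it. Their log2 change was below that of the named entry in 1071 of 1633 pairs (65.6%), and the median difference was -0.39. Outside named loci the median difference was 0.03 over 380 pairs. Of 351 named loci with at least 2 unannotated entries of 1 RPKM, all entries had the same sign in 214 (61.0%). Most entries in named loci had a negative change, with a median of -0.58 and an upper quartile of 0.17. The share of loci with 1 sign that this lean alone would give was not computed. The median spread between the highest and lowest log2 change within such a locus was 1.35.

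**Figure D4:**
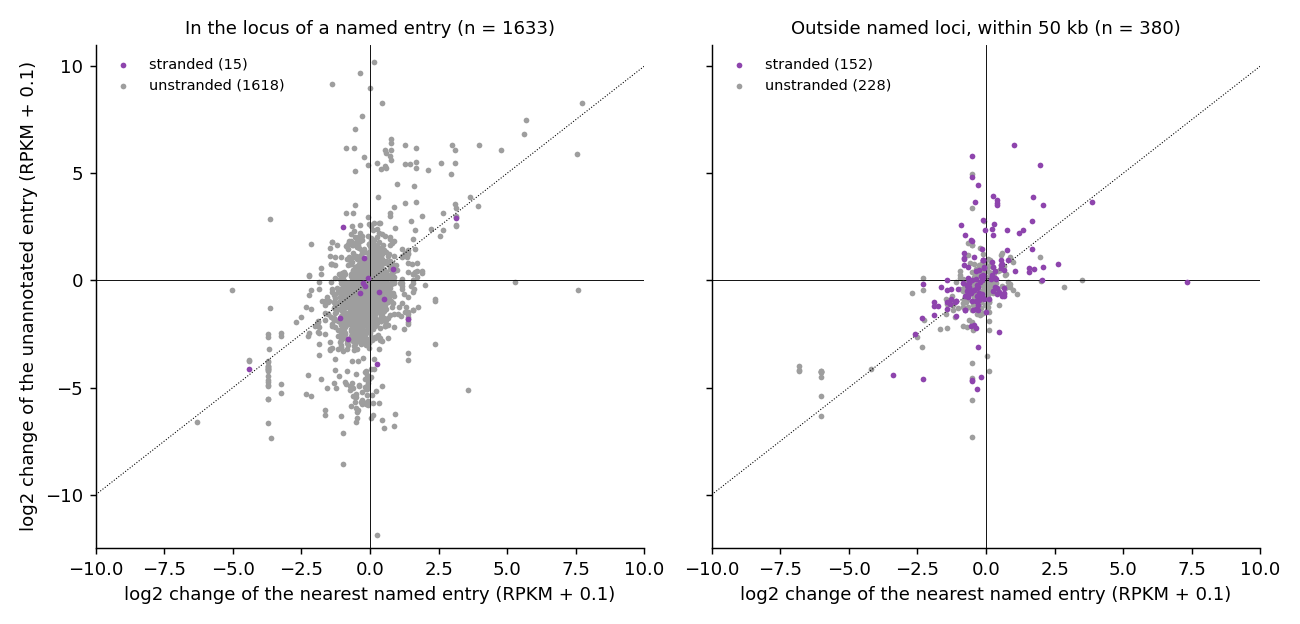
Log2 change of each unannotated entry (vertical) against that of the nearest named entry with at least 1 RPKM (horizontal), Dnmt1-/- over Dnmt1+/+ library, stranded entries in purple and unstranded in grey; the dotted line marks equal change. In named loci (1633 entries) most points lie below the line, and outside them (380 entries) the lower right and upper left corners hold no entry whose neighbour moved the other way past 2-fold.

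The Hox clusters held few of these entries. Within the 4 clusters and 10 kb on both sides there were 8, of which 7 were in HoxA, 1 in HoxC and 0 in HoxB or HoxD, and 7 reached 1 RPKM. Hox genes encode the transcription factors that set position along the body axis, and in fibroblasts their expression reflects the site of origin. XLOC_022028, in the locus of Hoxa10, rose from a listed 0 to 30.5 RPKM, beside Hoxa10 itself, which went from 0.00996 to 23.2. XLOC_009520, in the locus of Hoxc6, rose from 3.83 to 21.2 RPKM, while Hoxc6 went from 0.822 to 1.61.

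At the anterior end of HoxA the entries were stable or lower. XLOC_020942, on the plus strand opposite to Hoxa2 and over the non-coding gene Gm15051, was at 8.95 and 7.87 RPKM in Dnmt1+/+ and Dnmt1-/- MEFs, and the unstranded XLOC_022023 and XLOC_022024 of the same locus were at 1.68 and 1.85 and at 3.58 and 2.59. Hoxa2, 0.113 kb away, went from 1.40 to 0.208. XLOC_020943, on the plus strand over 5730446D14Rik and opposite to Hoxa3, went from 2.35 RPKM to a listed 0. The first 300 bases of its locus, with 13 CpG sites, are printed above. XLOC_022027, in the locus that holds Hoxa3 to Hoxa6, went from 4.07 to 0.787 RPKM, with Hoxa5 at 1.46 and 1.52. Over the 4 clusters 2 entries were higher and 2 were lower.

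Imprinted genes are expressed from 1 parental allele under the control of germline DNA methylation. Of 61 imprinted genes on the list, 56 were found in the table, and 15 unannotated entries lay within 100 kb of their loci. All 15 reached 1 RPKM, 1 was higher (6.67%) and 4 were lower (26.7%), and their median log2 change was -0.53. Over all 2232 unannotated entries with at least 1 RPKM the shares were 13.5% higher and 31.6% lower. The share lower near imprinted genes was thus not above that of the unannotated entries at large, in a set of 15. XLOC_021929, in the locus of Mest and Copg2, rose from 1.06 to 4.58 RPKM while Mest was at 14.4 and 14.7.

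The falls lay at 3 imprinted neighbourhoods. In the locus of Nnat and Blcap, XLOC_015772 went from 78.1 to 24.9 RPKM and XLOC_015774 from 4.70 to 1.56, with XLOC_015773 at 4.71 and 2.43, while Nnat went from 4.42 to 2.35. XLOC_024557, in the Mcmbp locus next to Inpp5f, went from 4.81 to 0.936 RPKM, and Inpp5f from 6.13 to 0.566, while XLOC_024556 of the same locus was at 2.90 and 3.61. XLOC_010503, a stranded entry over 4732491K20Rik near Slc22a3, went from 3.06 to 1.12 RPKM.

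At other imprinted genes the unannotated entries were all within 2-fold. XLOC_024373, in the locus of Snrpn and Snurf, was at 8.61 and 6.33 RPKM, whereas the named Snrpn entry went from 11.1 to 0.239. XLOC_011572 and XLOC_011573, in the Tcp1 locus near Airn and Igf2r, were at 1.81 and 1.38 and at 1.84 and 1.02, whereas Igf2r went from 34.6 to 0.450. XLOC_014191 was at 2.56 and 2.46 beside Gatm, which rose from a listed 0 to 15.9. XLOC_012449 near Impact was at 3.30 and 2.25, XLOC_027549 near Rasgrf1, itself listed at 0 in both libraries, at 5.999 and 6.17, and XLOC_015154 and XLOC_015764 near Blcap at 1.90 and 1.37 and at 3.12 and 1.98. Blcap, at 9.30 and 6.92, was lower by a similar amount. H19 and Igf2 had no unannotated entry of this size within 100 kb.

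Sequence was read for the entries outside named loci, where the locus is not shared with a named entry. Of these 610 entries, 231 lay over a protein-coding GENCODE gene and 219 over no GENCODE gene. No GENCODE gene covered 36 of the 69 higher stranded entries and 9 of the 37 lower ones. The part of gene overlap in the CpG values was not tested. Stranded entries that were higher in Dnmt1-/- MEFs had fewer CpG sites than the others, with a median of 0.916 per 100 bases in 69 entries, against 1.38 in 111 within 2-fold and 1.32 in 37 that were lower. The 35 that were listed at 0 in Dnmt1+/+ and reached 1 RPKM had a median of 0.746. All autosomal bases together gave 0.851 CpG per 100. Among the unstranded entries the medians were 0.940 in 29 higher, 1.69 in 251 within 2-fold and 1.29 in 64 lower. Entries of 1 locus share its sequence, and 8 of these 64 are the Slc1a3 locus. With 1 value per distinct locus, an alternative chosen after seeing the data, the medians were 0.940 over 23, 1.72 over 244 and 1.203 over 51 loci. The higher stranded loci were also longer, with a median of 8367 bp against 4516 and 3912. The part of length in the CpG values of whole loci was not tested. In stranded loci of at least 2 kb the medians were 0.902 in 60 higher, 1.27 in 87 within 2-fold and 1.13 in 24 lower. The first and last 500 bp alone had medians of 1.2 CpG per 100 bases in higher entries, 2 within 2-fold and 1.8 in lower ones.

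**Figure D5:**
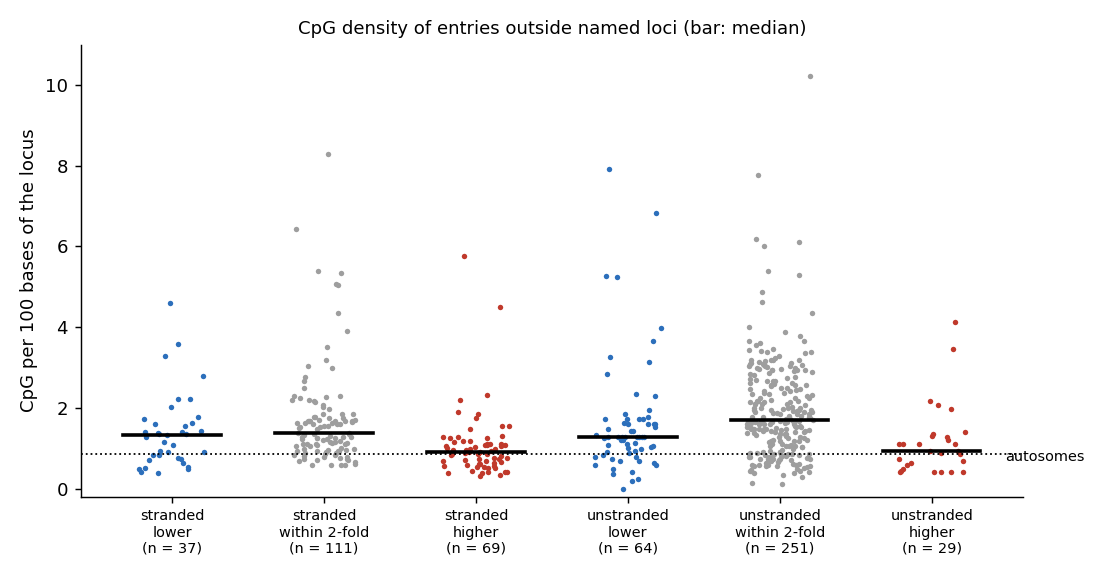
CpG sites per 100 bases of the locus for each unannotated entry outside named loci, by strand class and by change in Dnmt1-/- MEFs, with the median as a bar and the autosomal average of 0.851 as a dotted line. The medians of entries that were higher, 0.916 and 0.940, lie near the autosomal line and below those of the other groups.

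At the 5′ ends the same order held in part. In the first 300 bases of the locus the median was 4 CpG sites in stranded entries that were higher and 7 in those within 2-fold and those lower. Windows with 18 CpG sites or more, a density usual for CpG islands, opened 6 of the 69 higher entries (8.70%), 25 of the 111 within 2-fold (22.5%) and 5 of the 37 lower (13.5%), against 0.572% of all autosomal 300-base windows. Repeated sequence was measured as the share of 24-base words that occur at 10 or more places in the genome. Its median was 5.76% in stranded entries that were higher, 3.54% within 2-fold and 5.36% in those lower, and over 50% of the words were of this kind in 3 of the 69 higher entries. Several large rises held much repeated sequence. The share of such words was 39.9% in XLOC_007769, 33.8% in XLOC_001755 and 24.5% in XLOC_019700. The last of these, on the minus strand at chr5:7798266-7938083, went from a listed 0 to 20.2 RPKM. Unstranded entries within 2-fold had a median of 62.7% single-copy words, against 96.8% in unstranded entries that were lower.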

How the data were processed

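Strand-specific mRNA libraries of Dnmt1+/+ and Dnmt1-/- MEFs were sequenced, 1 library each. Per the submitters' processing notes, TopHat, Cufflinks and Cuffdiff were run by the authors on mm9, and the deposited values are RPKM per entry. Versions and any further scaling are not given in the sources used here. RPKM carries no counts, so no interval or detection limit was computed, and 1 library per genotype allows no test.

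Changes were differences of log2(RPKM + 0.1) for entries with at least 1 RPKM in either library, called past 2-fold. Locus starts, counted from 0 in the file, were moved to 1-based positions. Strand was inferred from identifier order, with a new pass where the start dropped by over 1 Mb. GENCODE genes and sequence came from NCBI37, the build of the table, and 24-base words were counted over both strands of that genome. Scripts used Python 3.11.15, numpy 2.4.6 and pandas 2.3.3, and were tested on simulated data. Named entries are the 10 largest rises and falls, the 5 highest listed at 0 each way, the 5 highest means, those nearest the length limit, those in Hox or imprinted domains and the 5 largest groups. Other entries named, the strand classes and the word counts were chosen after values were seen. The entries and lists were chosen with earlier results of these data known.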

Additional observations from a re-analysis of the deposited data

How the results depend on the processing

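No paired analysis was possible because there was 1 library per genotype, and for the same reason no replicate could be left out. Of 89 alternative values, 62 stayed within a factor of 1.5 of a count, or within the 95% binomial interval of a median over entries. The other 27 moved beyond it. No median log2 change changed sign, whereas counts and medians of sequence measures cannot. A count over fewer entries or at another threshold can move for that reason alone. The 301 higher and 705 lower entries became 180 and 310 at a 4-fold threshold, 190 and 373 when entries within 10 kb were joined, 73 and 42, with rises then outnumbering falls, when entries at least 10 kb from named entries were kept alone, and 195 and 425 with 1 value per distinct locus, an alternative chosen after seeing the data. With a pseudocount of 1 the lower count was 463. The median log2 change of -0.45 became -0.35 with a pseudocount of 1, -0.32 after subtracting the median of named autosomal entries (-0.13), -0.35 with joined entries, -0.022 for the entries far from named ones and -0.38 with 1 value per locus. The share of rises among all calls was 29.9%, 63.5% for the far entries, 35.0% with a pseudocount of 1 and 34.9% after subtracting the named median. For stranded entries outside named loci, subtracting the named median gave 76 higher and 33 lower, a pseudocount of 1 gave 61 and 19 (76.2% of calls higher, against 65.1%), and a mean RPKM of at least 1 gave 44 and 32 of 182. Beside neighbours within 2-fold the median was -0.25 when entries in named loci were left out. With 50 kb as the limit for near, 462 entries were near and 148 far.

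In the first and last 500 bp, CpG per 100 bases in stranded entries was 1.2 in higher, 2 in within 2-fold and 1.80 in lower entries, and repeated words were 0.900%, 0.300% and 0%, and 0% in lower unstranded entries. With loci of at least 2 kb, unstranded entries within 2-fold had 1.44 CpG per 100 bases and 1.38% repeated words, and lower unstranded ones 2.14% repeated words. The cause of these shifts was not tested. The share of repeat-masked bases was not run, because the genome file marks no masked bases; the count of repeated words, chosen after seeing the data, stands in its place.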

Other observations

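The split of unannotated entries was counted by chromosome, and some chromosomes are given here, picked after their values were seen. The share over all entries of each chromosome was not computed, and entries of 1 locus count separately. A difference between chromosomes was therefore not tested. On chromosome 3, 32 of 124 entries with at least 1 RPKM were higher in Dnmt1-/- MEFs (25.8%) and 34 were lower. Of these 32, 5 belong to the 1 locus at chr3:107615965-107632309. On chromosome 4, 15 of 116 were higher and 51 were lower (44.0%). On chromosome 19, 5 of 77 were higher (6.49%) and 36 were lower (46.8%). Chromosome 13 had 5 higher and 35 lower of 83, and none of its 15 entries outside named loci was higher.

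Orientation towards the nearest named entry was counted for the stranded entries outside named loci. Entries that lay over a GENCODE gene were counted as well, such as XLOC_003912, downstream of Mir1932 but within Rnf213. Within 10 kb, those upstream of a named entry on the opposite strand had 5 higher and 6 lower of 33, with a median log2 change of -0.23. A divergent promoter transcript would have this arrangement, but the entries were not shown to be such transcripts. Those upstream on the same strand had 5 higher and 4 lower of 33 and a median of 0.27. Those downstream on the same strand had 5 higher and 3 lower of 15 and a median of 0.46, while the median of their neighbours was -0.07. Read-through would lie there too, and its part was not tested. Downstream on the opposite strand there were 3 higher and 5 lower of 13.

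A few stranded entries lay over genes on the other strand only. Of 14 such entries, 10 reached 1 RPKM, with 4 higher and 2 lower. Elsewhere XLOC_011255, over D17H6S56E-5 next to Vars on chromosome 17, rose from 13.3 to 67.7 RPKM, with Vars at 111 and 109.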
